A study of Mus musculus with 8 samples.

Results

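The 10 genes described here code for the receptors through which neutrophils sense colony-stimulating factors and for the signalling proteins behind them: the receptor genes Csf3r, Csf2ra, Csf2rb and Csf2rb2, the kinase gene Jak2, the transcription factor genes Stat3, Stat5a and Stat5b, and the feedback inhibitor genes Socs3 and Cish. They were taken by symbol from the count table, which lists 24421 genes. All 10 passed the filter on low counts, which left 12254 genes for testing.

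The RNA came from neutrophils of the bone marrow of C57BL/6 mice aged 8 weeks, either wild type (WT) or Padi4-/- (KO). Padi4 codes for peptidylarginine deiminase 4, which converts arginine in proteins to citrulline, and the KO allele lacks exon 1 in every cell. According to the methods the mice were female and the neutrophils were isolated with magnetic beads. Neutrophils of each genotype were left unstimulated or given 1 µg/ml R848, an agonist of Toll-like receptor 7, for 6 h. The sample titles give 0 h for the unstimulated cells, whereas the protocol and methods read as 6 h of culture without R848. If the titles hold, R848 and time in culture cannot be told apart in the responses below. Each of the 4 groups had 2 libraries. The methods speak of duplicates, and nothing says that they came from different mice, so p-values measure only the spread between these libraries.

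Granulocyte colony-stimulating factor (G-CSF), which drives the production of neutrophils in the marrow and their release, acts through the receptor coded by Csf3r. Granulocyte-macrophage colony-stimulating factor (GM-CSF) binds the alpha chain coded by Csf2ra, which pairs with the common beta chain coded by Csf2rb. The beta chain is shared with the receptors for interleukin 3 and interleukin 5, and mice have a further beta chain gene, Csf2rb2, whose product serves interleukin 3 alone. These chains carry Janus kinases, JAK2 above all, which phosphorylate STAT3 and STAT5. The STAT proteins then bind DNA and induce, among other genes, Socs3 and Cish, whose products block the receptors in turn.

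STAT proteins bind a palindromic element with the letters TTCNNNGAA, which reads alike on both strands. Promoter windows from 250 bases before to 50 bases after a RefSeq start site (GRCm38.p6) were given for 9 of the 10 genes, in 11 windows, and not for Csf2rb. The element was present for 3 of these genes, Csf2rb2, Socs3 and Cish, against 9.55% of the 27025 genes with a window and 8.3% of all 32851 windows. A match of letters is a description and not a binding site. The stretches with the element are shown because these are genes of the group that differed most between the genotypes before stimulation. They are read 5′ to 3′ on the strand of the gene, with the element in capitals. Positions count from 1 at the start site, with negative numbers before it.
Csf2rb2: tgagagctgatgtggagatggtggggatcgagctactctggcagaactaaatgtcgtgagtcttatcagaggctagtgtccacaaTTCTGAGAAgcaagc
Socs3: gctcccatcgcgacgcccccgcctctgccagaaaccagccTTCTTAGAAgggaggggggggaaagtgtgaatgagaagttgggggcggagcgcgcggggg
Cish: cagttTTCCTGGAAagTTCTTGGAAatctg
The Csf2rb2 stretch is chr15:78305722-78305821 on the minus strand, its element begins at position -15, and no transcript of the gene in GENCODE vM21 reaches it. The Socs3 stretch is chr11:117969461-117969560 on the minus strand with the element at position -154. A longer Socs3 transcript in GENCODE spans it without an exon there. The Cish stretch is chr9:107296654-107296683 on the plus strand and carries the element at positions 1 and 12. It lies in the untranslated part of the first exon of a longer Cish transcript in GENCODE.

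The libraries held between 562446 and 1177972 counts on genes, and the KO libraries were the deeper ones (716440 to 1177972, against 562446 to 668857 in WT). A count of 0 allowed a level of up to 2.55 to 5.33 CPM, where CPM is a count divided by the library's total and put on a common scale. This limit is set at 3 counts and covers counting error only. Padi4 had 527 and 590 counts in unstimulated WT, 166 and 234 in WT with R848, and 21 to 54 in the 4 KO libraries, in which reads outside the deleted exon can remain. Relative to library totals, neutrophil markers took 161100 and 166800 CPM in unstimulated WT and 130900 and 132500 in unstimulated KO (11 of 12 markers were matched, and all 11 were tested). The 13 matched erythroid markers, of which 11 were tested and Hba-a1 and Hbb-bs were at 0 in all 8 libraries, summed to 34.4 to 153 CPM in the 4 WT libraries and 1384 to 1678 CPM in the 4 KO libraries. Monocyte and macrophage markers (11 of 12 tested, with Csf1r in the list) were at 311 and 368 CPM in unstimulated WT, 652 and 690 in unstimulated KO, and 2860 to 3038 in the 4 libraries with R848. Within that list Adgre1 had 22 to 47 counts in the unstimulated libraries and 1240 to 2091 with R848, and Csf1r had 81 to 230 and 430 to 1219, whereas Ccr2, Irf8 and Ly86 had fewer counts with R848 in both genotypes, Ccr2 for one 148 and 229 against 51 and 61 in KO. Stromal and endothelial markers (7 of 10 tested) were at 221 and 254 CPM in unstimulated WT, 599 and 755 in unstimulated KO, and 37.4 to 51.1 after R848. Lists of eosinophil, basophil and mast cell genes, of lymphocyte genes and of progenitor genes each stayed at or below 78.0 CPM. These are bulk libraries, so fewer cells of a type and less RNA per cell cannot be told apart.

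Per length of exon, Csf3r was the highest of the 10 genes in all 8 libraries. In unstimulated WT neutrophils its level was 583 ± 0.715 CPM per kilobase (SD, n = 2), followed by Csf2ra at 157 ± 1.41 and Csf2rb at 57.3 ± 3.14. Stat5b (42.4 ± 4.35) and Stat3 (38.5 ± 0.1) came next on the same scale. Jak2 (15.9 ± 0.136) and Socs3 (15.2 ± 2.01) overlapped between libraries, and Csf2rb2 (9.81 ± 0.0353), Stat5a (4.32 ± 0.633) and Cish (0.885 ± 0.111) stood below them. The receptor for G-CSF and the GM-CSF alpha chain thus ranked ahead of their kinase and transcription factors.
In unstimulated KO neutrophils the order was the same for the top 3 genes, Csf3r at 506 ± 2.06, Csf2ra at 103 ± 3.78 and Csf2rb at 63.6 ± 0.559 CPM per kilobase. Socs3, at 34.9 ± 4.28, stood among the STAT genes there, overlapping with Stat5b (37.3 ± 2.04) and Stat3 (34.3 ± 1.33), and Csf2rb2 (18.3 ± 1.22) ranked above Jak2 (11 ± 1.54). After R848, Socs3 ranked next after Csf3r and Csf2ra in both genotypes, at 72.8 ± 0.743 in WT and 84.6 ± 9.46 in KO, where its range overlapped that of Csf2rb (71.7 ± 3.56 and 76.9 ± 2.37). Stat5a and Cish were the lowest pair after R848, at 5.05 ± 2.69 and 5.03 ± 3.21 in WT and 6.64 ± 1.01 and 6.75 ± 0.834 in KO, with overlapping ranges in both.

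**Figure D1:**
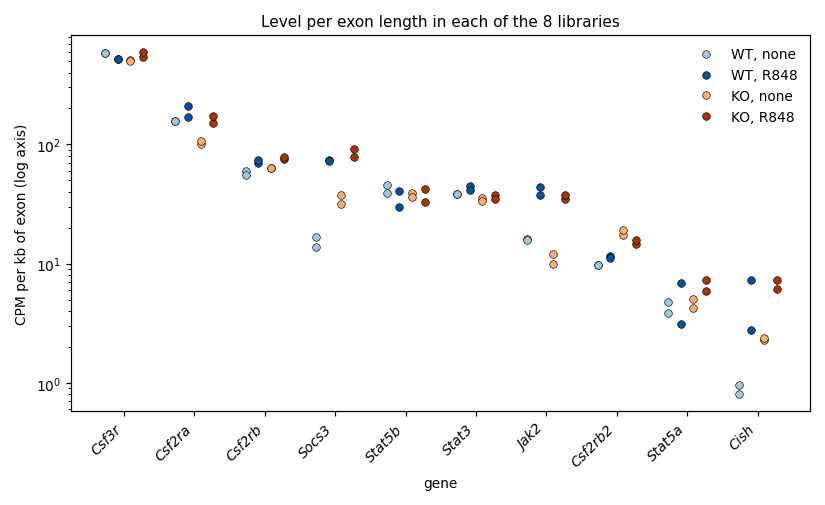
Level of each gene in CPM per kilobase of exon (vertical log axis), with 1 point for each of the 8 libraries, coloured by genotype and treatment. Csf3r lies above all others, at about 500 to 600 CPM per kilobase, and Socs3 moves from 15.2 in unstimulated WT to 72.8 after R848.

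The responses to R848 were compared first: 3 of the 10 genes, Jak2, Socs3 and Cish, rose in WT neutrophils and the same 3 rose in KO neutrophils, and none passed in the other direction. A response was called at an adjusted p under 0.1 (quasi-likelihood test of edgeR, Benjamini-Hochberg adjustment over all 12254 genes) and a change of more than 2-fold. At an unadjusted p under 0.05 and with no fold threshold, 1 of the 10 genes was lower in WT, Csf3r, and 0 in KO, both with edgeR, and DESeq2 called 0 lower in either. Over all genes, 7.17% were called higher and 10.8% lower in WT, and 8.07% higher and 8.84% lower in KO, at the adjusted p and fold thresholds. The share of all genes lower at an unadjusted p under 0.05 was not counted, so the 1 and 0 genes have no background here. Across the 10 genes the median log2 response was 0.26 in WT and 0.38 in KO, against -0.17 and -0.03 over all genes tested. Values below are CPM scaled with TMM factors (trimmed mean of M values), with log2 fold changes and standard errors (SE).

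**Figure D2:**
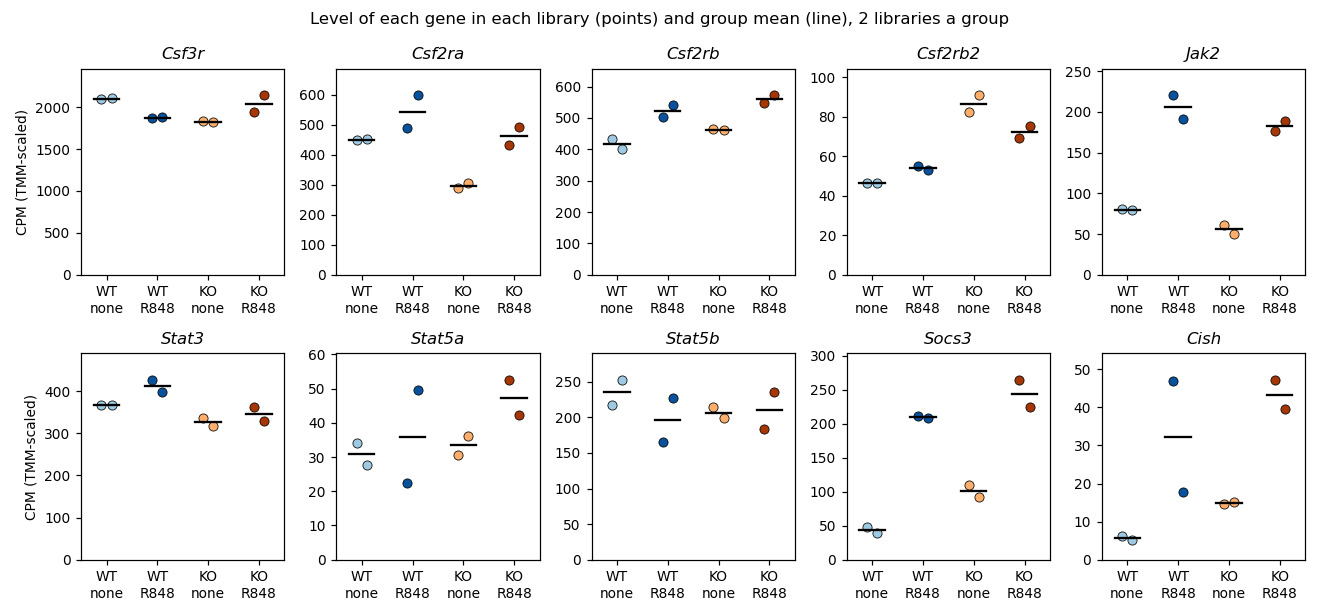
Scaled CPM of the 10 genes (vertical axes from 0), with 1 point for each library and a line at the group mean of 2 libraries. Jak2, Socs3 and Cish are higher with R848 in both genotypes, and Socs3, Cish and Csf2rb2 are higher in KO than in WT without stimulation.

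Csf3r (chr4:126024550-126044440, GRCm38, plus strand) stood at 2101 and 2105 CPM in unstimulated WT and 1867 and 1882 with R848. In KO it stood at 1830 and 1820 CPM unstimulated and 1941 and 2140 with R848. The gene was thus lower with R848 in WT and higher with R848 in KO, without overlap, by small amounts, and the KO value turned to -0.22 with library totals alone and to -0.04 without KO R848 replicate 2. The log2 fold changes were -0.17 ± 0.073 (SE) in WT and 0.16 ± 0.0681 in KO, with edgeR adjusted p of 0.0824 and 0.0577, both far under 2-fold. The difference of the responses was 0.33 ± 0.0998 (edgeR adjusted p = 0.0381), and over all genes 3.45% were called higher and 1.26% lower in this comparison. The median gene with at least 10 counts differed by 0.18 in the same direction, and by -0.07 to -0.06 without any 1 of the 4 libraries with R848. The call was lost in 11 of 15 alternative settings, among them the loss of any 1 of the 8 libraries, where the value ranged from 0.03 without KO R848 replicate 2 to 0.33.

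Csf2ra (chr19:61223957-61228429, minus strand), the alpha chain of the GM-CSF receptor, stood at 448 and 454 CPM in unstimulated WT and 489 and 598 with R848. In KO it stood at 289 and 305 CPM unstimulated and 434 and 494 with R848, so the libraries with R848 were the higher ones in both genotypes. The log2 fold change was 0.28 ± 0.104 in WT (edgeR adjusted p = 0.0347) and 0.64 ± 0.0936 in KO (edgeR adjusted p = 1.37e-10). Both were under the 2-fold threshold, and the WT value turned to -0.03 when libraries were scaled by their totals alone. Leaving out 1 library moved the response from 0.22 to 0.55 in WT and from 0.42 to 0.68 in KO. The difference between the responses, 0.36 ± 0.140, was not called (edgeR adjusted p = 0.157).
Without stimulation, Csf2ra was lower in KO than in WT by a log2 fold change of -0.60 ± 0.102, or 0.661-fold (edgeR adjusted p = 1.59e-07), and the call held in all 15 alternative settings, between -0.63 and -0.31. After R848 the value was -0.24 ± 0.0963 (edgeR adjusted p = 0.0869), the libraries of the genotypes overlapped, and the call was lost in 7 of 15 settings. The value was -0.51 without WT R848 replicate 1 and -0.16 without replicate 2. Its call was lost without WT R848 replicate 2, KO R848 replicate 1 or either unstimulated KO library.

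Csf2rb (chr15:78325752-78353847, plus strand), the common beta chain, stood at 433 and 401 CPM in unstimulated WT, 503 and 540 in WT with R848, 466 and 460 in unstimulated KO, and 547 and 572 in KO with R848. R848 moved it by a log2 fold change of 0.32 ± 0.105 in WT (edgeR adjusted p = 0.0111) and 0.27 ± 0.0863 in KO (edgeR adjusted p = 0.00688), under 2-fold in both, and the KO value was -0.10 with scaling by library totals alone. Leaving out 1 library moved the response from 0.27 to 0.51 in WT and from 0.12 to 0.28 in KO. The responses differed by -0.05 ± 0.136, with a 95% interval from -0.32 to 0.22. Genotype gave 0.15 ± 0.0977 without stimulation and 0.10 ± 0.0947 after R848, neither of which was called. With library totals alone both were called, at 0.44 and 0.31. The value without stimulation was called as well without any 1 of the 4 libraries with R848: 0.28 without WT replicate 1, 0.30 without WT replicate 2 and 0.28 without either KO library. After R848 it was -0.09 without WT R848 replicate 1 and -0.03 without KO R848 replicate 2.
Csf2rb2 (chr15:78282507-78305721, minus strand), the beta chain gene that serves interleukin 3, had 30 and 27 counts in unstimulated WT, or 46.4 and 46.6 CPM. It had 73 and 125 counts in unstimulated KO, or 82.5 and 90.7 CPM. The KO libraries were both higher, by a log2 fold change of 0.91 ± 0.213, or 1.88-fold (edgeR adjusted p = 0.000283), and the call held in all 15 alternative settings, between 0.84 and 1.20. After R848 the levels were 55.0 and 53.1 CPM in WT and 69.3 and 75.4 in KO, and the value of 0.42 ± 0.224 was not called (edgeR adjusted p = 0.244), although it was with library totals alone (0.63). With R848 the libraries were the higher ones in WT and the lower ones in KO, without overlap, and neither response was called: 0.22 ± 0.275 in WT (edgeR adjusted p = 0.622), which turned to -0.09 with library totals alone, and -0.27 ± 0.163 in KO (edgeR adjusted p = 0.216). Their difference of -0.49 ± 0.32 was not called either (edgeR adjusted p = 0.551), with a 95% interval from -1.12 to 0.14. Reads can be shared between the beta chain genes: 12.3% of the 50-base windows of Csf2rb transcripts and 18.4% of those of Csf2rb2 occur in the other gene, so the split of counts between them is uncertain. How the counting treated such reads was not given in the sources used here.

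Jak2 (chr19:29251828-29313080, plus strand), the kinase bound to all of these receptors, had 52 and 46 counts in unstimulated WT and 108 and 108 with R848, or 80.4 and 79.4 CPM against 220 and 191. In KO it had 54 and 69 counts unstimulated and 199 and 205 with R848, or 61.1 and 50.1 CPM against 177 and 188. Every library with R848 was above every unstimulated library. The log2 fold change was 1.36 ± 0.178 in WT (edgeR adjusted p = 5.72e-13) and 1.74 ± 0.150 in KO (edgeR adjusted p = 1.39e-29), or 2.56-fold and 3.34-fold. The difference between the responses was 0.39 ± 0.244 (edgeR adjusted p = 0.535), with a 95% interval from -0.09 to 0.86. Without stimulation Jak2 was lower in KO by -0.55 ± 0.204 (edgeR adjusted p = 0.0389), a call lost in 9 of 15 settings, DESeq2 and the loss of any library other than unstimulated KO replicate 1 among them, between -0.66 and -0.38 over the 8 losses. After R848 the value was -0.17 ± 0.136 and was not called.

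The 3 STAT genes were not called in any comparison. At an unadjusted p under 0.05, Stat5a passed in the KO response (0.48 ± 0.222, edgeR adjusted p = 0.0908, under 2-fold) and Stat3 in the genotype comparison after R848. Stat3 (chr11:100885098-100939540, minus strand) ranged from 318 to 426 CPM over the 8 libraries, at 366 and 368 in unstimulated WT, 426 and 398 in WT with R848, 336 and 318 in unstimulated KO, and 363 and 330 in KO with R848. Its log2 response was 0.16 ± 0.113 in WT and 0.09 ± 0.0964 in KO, with 95% intervals from -0.06 to 0.39 and from -0.10 to 0.28. After R848 it was lower in KO without overlap, by -0.25 ± 0.105, and its edgeR adjusted p of 0.104 lay just outside the threshold and passed it in 6 of 15 alternative settings. DESeq2 called 0 of the 3 genes in any comparison.
Stat5b (chr11:100780731-100850724, minus strand) stood at 218 and 252 CPM in unstimulated WT, 165 and 227 in WT with R848, 215 and 199 in unstimulated KO, and 184 and 236 in KO with R848. The groups overlapped in both responses, at -0.25 ± 0.142 in WT and 0.03 ± 0.112 in KO. Stat5a (chr11:100859351-100885169, plus strand) had 11 to 59 counts in a library. Its levels were 34.0 and 27.6 CPM in unstimulated WT, 22.4 and 49.6 in WT with R848, 30.5 and 36.3 in unstimulated KO, and 52.4 and 42.3 in KO with R848. The 2 WT libraries with R848 were its lowest and its second highest values, and its response of 0.25 ± 0.334 in WT had a 95% interval from -0.40 to 0.91. Stat5a and Stat5b share 8.2% and 11% of their 50-base windows, and the ends of Stat3 and Stat5a overlap on opposite strands, so counts of these neighbours cannot be fully separated without strand. The library kit named in the protocol does not mark strand.

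Socs3 (chr11:117966079-117970047, minus strand), which blocks the G-CSF receptor, had 31 and 23 counts in unstimulated WT and 104 and 118 with R848, or 47.9 and 39.7 CPM against 212 and 209. In KO it had 97 and 127 counts unstimulated and 297 and 245 with R848, or 110 and 92.2 CPM against 264 and 225. Unstimulated KO libraries lay between the unstimulated and the stimulated WT libraries, without overlap.
Socs3 rose 4.76-fold in WT, a log2 fold change of 2.25 ± 0.201 (edgeR adjusted p = 1.96e-27), and 2.46-fold in KO, at 1.30 ± 0.125 (edgeR adjusted p = 9.41e-24). The response in KO was smaller by 0.95 ± 0.251 on the log2 scale, that is -0.95 as KO minus WT (edgeR adjusted p = 0.0091). The value stayed between -1.31 and -0.83 in 15 alternative settings, and the call was lost in 1 of them, without WT unstimulated replicate 2, at an edgeR adjusted p of 0.134. Csf3r and Socs3 were the only ones of the 10 genes called in this comparison, 1 higher and 1 lower.
Unstimulated Socs3 was higher in KO than in WT by 1.17 ± 0.210, or 2.25-fold (edgeR adjusted p = 6.65e-07), and this call held in all 15 settings, between 1.05 and 1.46. After R848 the value was 0.22 ± 0.128 (edgeR adjusted p = 0.309), with a 95% interval from -0.03 to 0.47. It was called with library totals alone, at 0.43, and was -0.01 without KO R848 replicate 1. The unstimulated comparison, the comparison after R848 and the difference of responses share libraries and are not independent of each other.

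Cish (chr9:107296026-107302784, plus strand), which codes for an inhibitor induced by STAT5, had few counts: 4 and 3 in unstimulated WT, 13 and 21 in unstimulated KO, 23 and 10 in WT with R848, and 53 and 43 in KO with R848. Levels were 6.18 and 5.18 CPM in unstimulated WT and 46.9 and 17.7 with R848, and 14.7 and 15.2 in unstimulated KO and 47.1 and 39.5 with R848. The libraries with R848 were above the unstimulated ones of the same genotype, and the 2 WT libraries with R848 lay far from each other. Cish rose by 2.42 ± 0.521 in WT (edgeR adjusted p = 3.15e-05) and by 1.52 ± 0.279 in KO (edgeR adjusted p = 5.1e-07), or 5.37-fold and 2.87-fold. The WT response was 1.75 without WT R848 replicate 1 and 3.11 without replicate 2, and stayed called. The difference between the responses, -0.90 ± 0.639, was not called (edgeR adjusted p = 0.596), with a 95% interval from -2.16 to 0.35. It was -0.36 without WT R848 replicate 1 and -1.72 without WT R848 replicate 2.
Unstimulated Cish was higher in KO by 1.37 ± 0.545, or 2.59-fold (edgeR adjusted p = 0.0577), a call that 5 of 15 settings lost: DESeq2, an adjusted p under 0.05, the loss of either unstimulated WT library (1.51 and 1.26) and the loss of unstimulated KO replicate 2 (1.35). After R848 it was 0.47 ± 0.293 (edgeR adjusted p = 0.35), and it was -0.19 without WT R848 replicate 2, and called at 1.14 without WT R848 replicate 1 and at 0.68 with library totals alone. The antisense gene Gm17041 and the pseudogene Gm17040 overlap Cish on the other strand, and their reads cannot be told apart from those of Cish without strand.

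**Figure D3:**
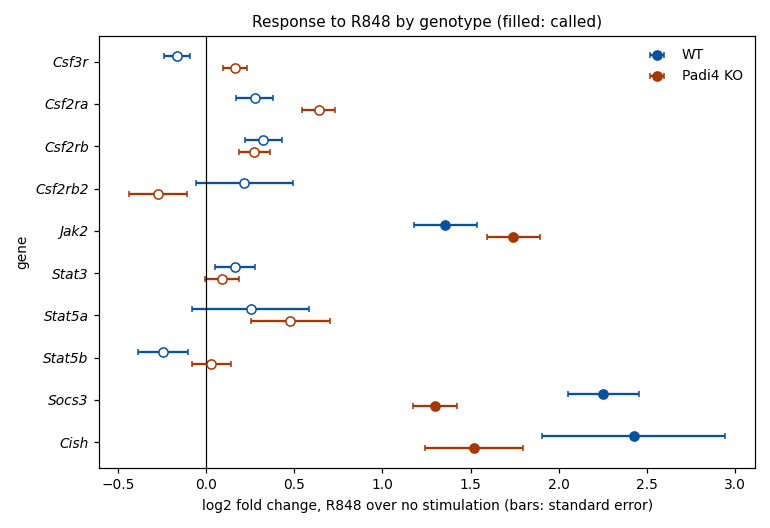
Log2 fold change of R848 over no stimulation (horizontal axis) for the 10 genes in WT and KO, with SE bars and filled points for calls. Jak2, Socs3 and Cish are filled in both genotypes, and Socs3 lies at 2.25 in WT and 1.30 in KO.

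Between the genotypes, 6 of the 10 genes were called without stimulation and 1 after R848. Unstimulated, Socs3, Csf2rb2 and Cish were higher in KO, and Csf2ra, Jak2 and Csf3r were lower. Over all genes 9.55% were called higher and 14.4% lower, at an adjusted p under 0.1 with no fold threshold. On the log2 scale the median of the 10 genes was -0.02, against -0.03 over all genes tested. The Csf3r value was -0.20 ± 0.0701 (edgeR adjusted p = 0.0224), the median gene with at least 10 counts was at -0.16, and the Csf3r value turned to 0.08 with scaling by library totals alone. The Csf3r call was lost in 10 of 15 settings without a change of sign and in that scaling with one. After R848, Csf2ra was the gene called, with 9.46% of all genes called higher and 7.81% lower.
The calls without stimulation that held in all 15 settings were those of Socs3, Csf2rb2 and Csf2ra. Relative to the median gene they were 1.33, 1.07 and -0.44. The erythroid, monocyte and stromal marker sums given above differed in the same comparison, and their part in the values of the receptor, kinase and inhibitor genes was not tested.

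**Figure D4:**
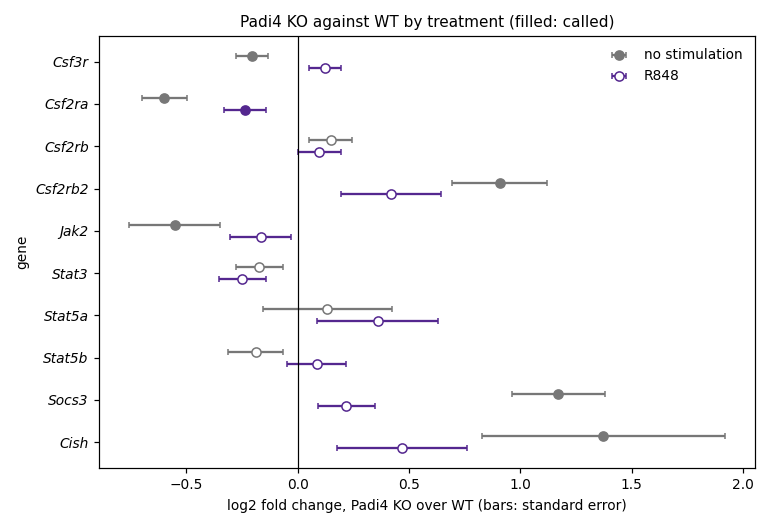
Log2 fold change of Padi4 KO over WT (horizontal axis) for the 10 genes without stimulation and after R848, with SE bars and filled points for calls. Socs3, Cish and Csf2rb2 lie to the right and Csf2ra, Jak2 and Csf3r to the left without stimulation, and Csf2ra is the filled point after R848.

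The split of calls over all genes into higher and lower depended on the scaling and on the libraries in the fit, in which TMM factors were recomputed. For the difference of responses, 73.3% of the calls were higher in KO, against 40.7% with relative log expression (RLE) factors, 28.0% with DESeq2, 60% with library totals alone and 17.2% to 25.7% without any 1 of the 4 libraries with R848. Without stimulation 39.9% of the genotype calls were higher in KO, against 77.2% with library totals alone and 55.4% to 57.5% without any 1 of the 4 libraries with R848, and the median gene then lay between -0.03 and -0.01. After R848 the share was 54.8%, against 42.1% with RLE factors, 38.4% with DESeq2, 81.8% with library totals and 36.7% to 42.3% without any 1 of those 4 libraries. For the responses the shares were 39.8% in WT and 47.7% in KO, against 53.0% in WT with DESeq2 and 23.0% and 23.1% with library totals. Without any 1 of the 4 libraries with R848 they were 46.7% to 52.4% in WT and 37.7% to 40.7% in KO. With library totals alone the median gene moved to -0.38 in WT, -0.30 in KO, 0.12 for genotype without stimulation and 0.21 after R848, from -0.07, 0.08, -0.16 and -0.00 in the order given.

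A wider set of 93 genes of the same pathways, of which 84 were tested, was described by the same rules. In response to R848, 28 rose and 4 fell in WT, and 23 rose and 6 fell in KO, with medians of 0.57 and 0.63 against -0.17 and -0.03 over all genes tested. The shares over all genes were the 7.17% higher and 10.8% lower in WT and 8.07% and 8.84% in KO given above. Between the genotypes, 12 were higher and 25 lower in KO without stimulation, against 9.55% and 14.4% of all genes called. The median of the 84 was -0.19, against -0.03 over all genes tested, many of which had few counts. The median gene with at least 10 counts was at -0.16, so the median shows little lowering particular to the pathway genes. Of the 84, 6 were higher and 23 lower after R848, against 9.46% and 7.81% of all genes called. Their median as a set of 84 was -0.13, against 0.08 over all genes tested and -0.00 for the median gene with at least 10 counts. Shares of calls were not counted among genes of similar counts, so they are no matched background here or for the lists below.

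Among the ligands, the genes of GM-CSF (Csf2), interleukin 3 (Il3), interleukin 5 (Il5), erythropoietin (Epo) and thrombopoietin (Thpo) had 0 counts in all 8 libraries. G-CSF itself (Csf3) had 0 counts in the 4 unstimulated libraries, 6 and 4 in WT with R848 and 0 and 4 in KO with R848. On these few counts Csf3 was called higher with R848 in WT, at 6.02 ± 1.79 (edgeR adjusted p = 0.00448). It was not called in KO, at 3.72 ± 1.82 (edgeR adjusted p = 0.114), and the difference of the responses was not called. The cells' own messages for the ligands of these receptors were therefore near or under the detection limit.
Il10, the gene of the anti-inflammatory cytokine interleukin 10 that signals through STAT3, had 0 counts in the 4 unstimulated libraries, 115 and 96 in WT with R848, and 138 and 109 in KO with R848. It was at least 31.1-fold higher with R848 in WT and at least 25.5-fold in KO, against a limit of 3 counts per library. After R848 it was lower in KO by -0.84 ± 0.148 (edgeR adjusted p = 4.47e-07).
Csf1, the gene of the macrophage colony-stimulating factor, had 14 and 15 counts in unstimulated WT, 75 and 66 in WT with R848, 13 and 23 in unstimulated KO, and 23 and 32 in KO with R848. It rose by 2.49 ± 0.259 in WT (edgeR adjusted p = 2.27e-20) and was not called in KO, with a difference of -1.85 ± 0.432 (edgeR adjusted p = 0.00186). Osm, the gene of oncostatin M, an interleukin 6 family cytokine, fell by 2.36 ± 0.145 on the log2 scale in KO (edgeR adjusted p = 1.52e-57) and was not called in WT. The Osm responses differed by -2.27 ± 0.225 (edgeR adjusted p = 1.43e-20), from 248 ± 5.88 to 48.5 ± 13.3 CPM in KO against 166 ± 11.8 to 156 ± 4.74 in WT (SD, n = 2).

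Of the other cytokine receptors, 18 of 20 were tested, 7 rose and 1 fell in WT, and 6 rose and 2 fell in KO. The shares over all genes were 7.17% and 10.8% in WT and 8.07% and 8.84% in KO. Il10ra, the ligand-binding chain of the interleukin 10 receptor, rose by 3.85 ± 0.191 in WT and 2.72 ± 0.145 in KO (edgeR adjusted p = 3.42e-88 and 4.76e-76). Its responses differed by -1.13 ± 0.294 (edgeR adjusted p = 0.00795), a call lost without WT unstimulated replicate 2 at -0.95. Il2rg, the common gamma chain, rose by 3.58 ± 0.186 and 4.07 ± 0.176, and Csf1r, the receptor for the Csf1 product, by 2.72 ± 0.116 and 2.62 ± 0.0931.
Il4ra, the alpha chain of the interleukin 4 receptor, was higher in unstimulated KO by 0.55 ± 0.143 (edgeR adjusted p = 0.00121), and its responses differed by -0.72 ± 0.183 (edgeR adjusted p = 0.00679). Epor, the erythropoietin receptor of erythroid cells, had 3 and 1 counts in unstimulated WT and 21 and 33 in unstimulated KO. It had 0 and 1 counts in WT with R848 and 24 and 17 in KO with R848. The Epor difference moved with the erythroid marker sums.

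Of the other JAK and STAT genes, all 7 were tested, and Tyk2, the kinase of the interferon and interleukin 10 receptors, was the one past 2-fold. It rose by 2.62 ± 0.151 in WT and 2.12 ± 0.118 in KO (edgeR adjusted p = 3.42e-65 and 4.93e-70). The shares of all genes called higher with R848 were 7.17% in WT and 8.07% in KO. Between the genotypes, 4 of the 7 were lower and 1 higher in KO without stimulation, against 14.4% and 9.55% of all genes. After R848, 4 were lower, against 7.81% of all genes. Stat4 was lower by -1.21 ± 0.242 and -1.39 ± 0.285, and Jak1 by -0.49 ± 0.0957 and -0.33 ± 0.0926. The Stat4 call after R848 was lost without WT R848 replicate 1, at -0.92. The Jak1 calls were lost in both states with library totals alone.

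Among the 21 other inhibitors, which include the remaining SOCS genes, phosphatases and PIAS genes, 6 rose in WT and 5 rose in KO. The shares over all genes were 7.17% and 8.07%. Among the other SOCS genes, Socs1 had 3 to 10 counts in a library and Socs2 0 to 1. The phosphatase genes Ptpn1, Ptpn6 and Ptpn11, of which Ptpn6 codes for SHP-1, rose by 1.45 ± 0.0932, 1.58 ± 0.0827 and 1.499 ± 0.135 in WT. In KO they rose by 1.66 ± 0.0848, 1.54 ± 0.0774 and 1.49 ± 0.116. Cbl, the ubiquitin ligase that turns over activated receptors, was lower in unstimulated KO by -0.73 ± 0.123 (edgeR adjusted p = 1.11e-07), and its responses differed by 0.64 ± 0.165 (edgeR adjusted p = 0.00644). The difference was lost with DESeq2, and at 0.28 without WT R848 replicate 1, 0.49 without KO R848 replicate 1 and 0.33 without KO R848 replicate 2.
Of 14 adaptor and kinase genes, 3 rose and 2 fell in WT, against 7.17% and 10.8% of all genes. In KO 3 rose, against 8.07%. Pik3r1, the regulatory subunit of phosphoinositide 3-kinase, fell by 1.73 ± 0.272 on the log2 scale in WT, and the difference of its responses was 1.45 ± 0.346 (edgeR adjusted p = 0.00275). This call was lost at 1.07 without WT unstimulated replicate 2, 1.01 without WT R848 replicate 1 and 1.14 without KO R848 replicate 1. Without stimulation 7 of the 14 were lower in KO, against 14.4% of all genes. The calls of Grb2, Sos2 and Sh2b1 were lost with library totals alone, and those of Pik3r1, Sos2 and Sh2b1 with DESeq2. After R848 1 was lower and 2 were higher, against 7.81% and 9.46% of all genes. There the call of Lyn was lost with library totals alone, and those of Pik3cd and Pik3r1 with DESeq2 or RLE factors, among other settings.

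Of 18 genes known as targets of STAT3 or STAT5, 8 rose and 1 fell in WT, and 7 rose and 3 fell in KO. The shares over all genes were 7.17% and 10.8% in WT and 8.07% and 8.84% in KO. The largest changes among the 18 were those of Icam1, the adhesion molecule, and Pim2, a survival kinase. Icam1 had 1 count in each unstimulated WT library and 208 and 262 with R848. In KO it had 6 and 6 counts unstimulated and 447 and 410 with R848. Pim2 went from 2 and 0 counts to 113 and 152 in WT, and from 1 and 5 to 225 and 217 in KO. Il1rn, the interleukin 1 receptor antagonist, rose by 2.85 ± 0.0996 in WT and 3.12 ± 0.0959 in KO.
The responses of 7 of the 18 differed between the genotypes, 5 lower and 2 higher in KO, against the 1.26% lower and 3.45% higher over all genes. The direction over all genes turned with the scaling: 73.3% of the calls were higher here, 40.7% with RLE factors and 28.0% with DESeq2. Pim1 gave -0.86 ± 0.181, Bcl3 -0.999 ± 0.285, Junb -1.02 ± 0.138 and Id2 0.92 ± 0.219 (edgeR adjusted p = 0.000288, 0.0212, 1.28e-10 and 0.00254). The Bcl3 call was lost without WT unstimulated replicate 2 (-0.90), and the Id2 call without that library (0.71), WT R848 replicate 1 (0.43) or KO R848 replicate 1 (0.59), and with DESeq2 (0.77). Cebpb, Mcl1 and Ccnd3 were the rest, at -0.77 ± 0.127, -0.54 ± 0.113 and 0.45 ± 0.139. The Ccnd3 call was lost with DESeq2, with RLE factors, with library totals alone and without any library other than WT unstimulated replicate 2 and KO unstimulated replicate 2, falling to 0.13 without WT R848 replicate 2. Bcl3 and Junb resembled Socs3 in their levels without stimulation, which were higher in KO: 59.2 ± 5.77 CPM against 31.7 ± 3.30 for Bcl3 and 492 ± 20 against 349 ± 6.49 for Junb (SD, n = 2). After R848, Bcl3 stood at 227 ± 0.322 CPM in KO and 247 ± 3.59 in WT, and Junb at 423 ± 28.2 and 604 ± 120.

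**Figure D5:**
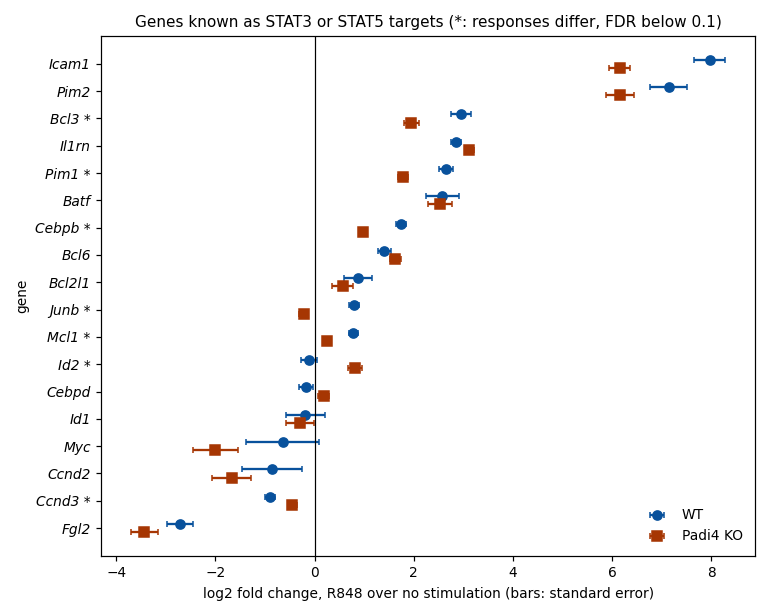
Log2 fold change of R848 over no stimulation (horizontal axis) for 18 STAT3 or STAT5 target genes in WT and KO, with SE bars and asterisks where the responses differed. Of the 7 marked genes, 5 have the smaller or more negative value in KO, and Junb lies on opposite sides of 0.

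For Csf3r, Socs3 and Cish, the genes whose levels followed theirs most closely over the 8 libraries were listed among 2918 genes (2919 for Cish) with at least 50 counts on average. The 8 points share 4 conditions in pairs, so the Pearson correlations of log2 CPM are descriptions only. Rassf4 (0.987) and Slc20a1 (0.982) were among the 3 genes most like Socs3. Rassf4 had group means of 48.4, 105, 338 and 456 CPM in unstimulated WT, unstimulated KO, WT with R848 and KO with R848, and Socs3 43.8, 101, 210 and 245 in the same order. Cish was most like Mfsd1 (0.980), Mta2 (0.968) and Ywhae (0.941), and Csf3r most like Rbl2 (0.956), Btk (0.921) and Ncoa2 (0.903).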

How the data were processed

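The deposited table holds whole-number read counts for each gene and library. The authors checked reads with FastQC 0.11.7, trimmed adaptors with cutadapt 1.16, removed reads of low quality, mapped the rest to mm10 with STAR 2.5.3a and made the counts with HTSeq 0.6.1p1. The gene annotation and the strand setting were not given in the sources used here. Ambiguous reads, 1.31% to 1.69%, and reads on no gene were left out of library sizes, and 87.0% to 89.4% of the counted reads lay on genes.

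Genes with at least 1 count in at least 2 of 8 libraries were tested with edgeR 4.0.16 (R 4.3.3): TMM factors, 1 mean for each group, all 8 libraries in 1 fit, robust quasi-likelihood F test, and Benjamini-Hochberg adjustment over the 12254 genes. Responses to R848 were called at an adjusted p under 0.1 and more than 2-fold, and the other contrasts at an adjusted p under 0.1. The biological coefficient of variation was 4.68%. The 95% intervals are normal intervals from the SE. CPM use TMM factors, except that marker sums and floors use library totals. Exon lengths, positions and overlaps came from GENCODE vM21 (GRCm38), and promoter windows from RefSeq. The tests were checked on simulated data with 200 genes changed in WT with R848, as many up as down. The simulation held no shift of the median gene, so it cannot speak to the dependence on scaling. Duplicates differed by little more than counting noise (chi-square per degree of freedom 1.05 to 1.19), except in WT with R848 (1.83).

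The members and gene lists were chosen with earlier results of these data known. All 10 members are given. From each pathway list, the genes named are at most 4 per contrast, those with the largest change among called genes with at least 10 counts on average. Ligands at or near 0, Socs1, Socs2, Mcl1, Ccnd3 and Cebpb were named after their values were seen. A few genes that this rule names are not reported here. Alternatives were DESeq2 1.42.0 (Wald test), other filters, RLE factors, library totals alone, a replicate block, other thresholds, separate fits for each genotype, and leaving out each library.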

Additional observations from a re-analysis of the deposited data

Results flagged for a closer look

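The responses to R848 differed between the genotypes, by the test of the difference itself (edgeR quasi-likelihood test), for 2 of the 10 genes and 14 of the 84 other pathway genes tested (5 higher and 9 lower in KO), against 3.45% higher and 1.26% lower over all genes. As KO minus WT on the log2 scale, the difference was -0.95 for Socs3 and 0.33 for Csf3r. Among ligands it was -1.85 for Csf1 and -2.27 for Osm. Among receptors it was -1.13 for Il10ra and -0.72 for Il4ra. Among signalling genes it was 0.64 for Cbl, 0.44 for Pik3cd and 1.45 for Pik3r1. The Pik3cd call was lost with DESeq2 or RLE factors (0.285), with library totals alone (0.368) and without any library other than KO unstimulated replicate 1, falling to 0.06 without WT R848 replicate 1. Among STAT targets it was -0.86 for Pim1, -0.54 for Mcl1, -0.999 for Bcl3, 0.45 for Ccnd3, -0.77 for Cebpb, -1.02 for Junb and 0.92 for Id2. The median gene with at least 10 counts stood at 0.18 in this comparison, at 0.02 with RLE factors or DESeq2, and at -0.07 to -0.06 without any 1 of the 4 libraries with R848. Of the calls over all genes, 73.3% were higher, against 40.7% with RLE factors and 28.0% with DESeq2.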

How the results depend on the processing

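The depth, with Cish at 3 to 53 counts and Stat5a at 11 to 59 counts in a library, and the 2 libraries a group limit what could be seen. In a group left with 1 library, that library is assumed to vary like the others. The causes of the changes below were not tested.

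Jak2, Socs3 and Cish stayed called in the WT response in every alternative, and in the KO response in every one except library totals alone, where Socs3 (0.92) fell under 2-fold. Without the fold threshold, 6 members were called in WT and 7 in KO, and 55 pathway genes in KO. For the difference of responses, DESeq2, RLE factors and library totals each left 1 member called, Socs3, and DESeq2, which gave no adjusted p for Csf1 and Pik3r1, left 8 pathway genes. For genotype without stimulation, DESeq2 called 3 members and 18 pathway genes, and library totals 24 pathway genes. After R848, DESeq2 and an adjusted p under 0.05 called 0 members, the filterByExpr filter and RLE factors 2, and library totals 5 (Csf3r, Csf2rb, Csf2rb2, Socs3 and Cish).

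Correlations of the deviations between replicates lay between -0.00571 and 0.0364. Most of these deviations were counting noise, so the correlations cannot show whether replicate numbers paired the samples. With the replicate block, 2 members were called after R848, Csf2ra and Stat3, and it changed no other member's call.

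Leaving out each library gave 0 to 1 members for the difference of responses, 3 to 5 for genotype without stimulation with 23 to 33 pathway genes, and 0 to 3 after R848. The loss of WT unstimulated replicate 2 gave the 0 for the difference. The 3 came without either unstimulated WT library or without unstimulated KO replicate 2. After R848 the count was 0 without either unstimulated KO library and 3 without WT R848 replicate 1.

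Signs turned in the following values, none of which was called after turning. The KO responses of Csf3r, Stat3 and Stat5b with library totals had adjusted p under 0.1 (0.00695, 0.0114 and 0.00787) and missed the call by the 2-fold threshold alone. With library totals alone the WT response was -0.028 for Csf2ra, -0.088 for Csf2rb2, -0.14 for Stat3 and -0.051 for Stat5a. The KO response was -0.215 for Csf3r, -0.103 for Csf2rb, -0.288 for Stat3 and -0.348 for Stat5b. Genotype without stimulation was 0.082 for Csf3r, 0.114 for Stat3 and 0.099 for Stat5b, and after R848 0.049 for Jak2. For Stat5b the KO response was -0.059 with DESeq2, -0.031 with filterByExpr and -0.055 with RLE factors. After R848 Csf2rb and Stat5b were -0.001 and -0.008 with DESeq2 and -0.002 and -0.015 with RLE factors.

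Leaving out libraries moved the WT response of Stat5a from -0.363 to 0.812 and of Stat5b from -0.403 to 0.09. The KO response ran from -0.287 to 0.074 for Stat5b, from -0.125 to 0.12 for Stat3 and from -0.036 to 0.162 for Csf3r. The difference ran from -0.372 to 0.003 for Csf2rb, from -0.047 to 0.399 for Csf2ra, from -0.473 to 0.712 for Stat5a and from -0.198 to 0.379 for Stat5b. Genotype without stimulation ran from -0.013 to 0.298 for Stat5a. After R848 it ran from -0.046 to 0.126 for Csf3r, from -0.093 to 0.102 for Csf2rb, from -0.206 to 0.994 for Stat5a, from -0.255 to 0.262 for Stat5b, from -0.013 to 0.23 for Socs3 and from -0.194 to 1.143 for Cish.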
